A study of Mus musculus with 20 samples.

Results

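The enzymes and carriers of glycolysis, lactate exchange and the pentose phosphate pathway were followed as a set of 32 genes, taken by name from the 43629 genes of the count table. The set holds 22 genes of glucose uptake, glycolysis and lactate handling and 10 genes of the pentose phosphate pathway and of the synthesis of phosphoribosyl pyrophosphate (PRPP). All 32 were found in the table and all 32 had enough counts to be tested in every comparison. Gene expression was measured by poly-A RNA sequencing of nuclei from mouse spinal cord, which had been separated by a flow sorter into those stained for NeuN (Rbfox3), a protein found in the nuclei of most neurons, and those not stained. The groups were NeuN-positive nuclei of mice with experimental autoimmune encephalomyelitis (EAE) at day 15 after active immunization and NeuN-positive nuclei of healthy mice, and likewise NeuN-negative nuclei of EAE mice and NeuN-negative nuclei of healthy mice, with 5 libraries each. In EAE, T cells raised against myelin drive inflammation of the spinal cord, and the disease serves as a mouse model of multiple sclerosis. The sources used here give no strain, sex, age, genotype or immunizing agent, and do not say whether nuclei of several mice were pooled. The labels do not say that the libraries of a group come from separate mice, so the p-values measure the spread between libraries, which may be technical.

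Glycolysis splits glucose into pyruvate in the cytosol, and most of its steps are served by isoform genes with different tissue patterns. Lactate dehydrogenase interconverts pyruvate and lactate, and monocarboxylate transporters carry lactate across the cell membrane, out of cells that make it and into cells that burn it. In nervous tissue, glia are held to be the main exporters of lactate and neurons its users, and activated macrophages and T cells are known for strong glycolysis. The pentose phosphate pathway branches off after the first step of glycolysis and supplies NADPH, the reductant of antioxidant defence, and ribose phosphate for nucleotides.

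Total counts per library ran from 3149209 to 37689267. The sort was checked on 12 neuronal marker genes, whose summed level was 19530 to 29800 CPM (counts scaled to a common library size) in EAE NeuN-positive, 22620 to 25750 in healthy NeuN-positive, 1040 to 3055 in EAE NeuN-negative and 1421 to 3850 in healthy NeuN-negative nuclei. Most of this sum was Snhg11, at a mean of 21610 CPM in EAE and 19200 CPM in healthy NeuN-positive nuclei; taken singly, 10 of the 12 markers were higher in NeuN-positive than in NeuN-negative nuclei in EAE and 9 of 12 in healthy mice. The mitochondrially encoded share of counts was above 2% in the NeuN-positive libraries EAE 2, EAE 4 and healthy 3, which also held the highest shares of oligodendrocyte markers of their groups. By edgeR, calls that change without EAE 2, EAE 4 and healthy 3 in both sorts are given. These were picked on their NeuN-positive libraries, and the NeuN-negative libraries EAE 1 and EAE 5, at 3.65 and 6.01%, stay in when they are left out. The NeuN-negative library EAE 2 was the shallowest of all and had the highest mitochondrial share, 12.3%. Markers of monocytes and macrophages summed to 353 to 1950 CPM in EAE NeuN-positive, against 20.9 to 50.2 CPM in healthy NeuN-positive nuclei, and to 832 to 2918 CPM in EAE NeuN-negative, against 75.9 to 129 CPM in healthy NeuN-negative nuclei. In bulk libraries a change in the number of cells of a type and a change in RNA per cell cannot be told apart.

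Levels of different genes were compared as CPM per kilobase of merged exons. In NeuN-positive nuclei the highest level belonged to Eno2, the neuronal enolase, at 202 ± 56.1 in EAE and 268 ± 69.6 CPM per kb in healthy mice (SD, n = 5 each). Pfkm, the muscle-type phosphofructokinase, and Gpi1, the isomerase that follows hexokinase, came next in both states. The order of these 3 genes does not stand beyond the spread in every case: Gpi1 averaged 125 ± 15.6 and Pfkm 112 ± 31.1 CPM per kb in EAE, and Gpi1 averaged 111 ± 19.6 and Pfkm 125 ± 22.5 CPM per kb in healthy NeuN-positive nuclei. In healthy NeuN-negative nuclei the highest levels were those of Pkm, pyruvate kinase, at 192 ± 80.4, and Aldoc, the aldolase of astrocytes, at 143 ± 50.7 CPM per kb, with overlapping spreads. Slc16a7, a monocarboxylate transporter (MCT2), was the lowest of the 32 in all 4 groups, at 0.0540 to 0.470 CPM per kb. Gapdh stood low, at 1.69 to 4.60 CPM per kb. Of the 50-base stretches of its transcripts, 25.1% also occur in transcripts of other genes, and for Pgk1, Pgam1, Eno1, Pkm and Ldhb this share was 53.9, 36.2, 26.0, 25.8 and 21.0%. No source used here says how reads matching several genes were counted, so the values of these genes are uncertain. Nor is the use of strand stated, and 13 of the 32 genes overlap an antisense gene whose reads cannot then be told apart: Slc2a1, Hk1, Hk2, Gpi1, Pfkm, Pfkp, Aldoa, Tpi1, Gapdh, Slc16a7, G6pdx, Rpe and Prps2. Gm26762, antisense to Gpi1, averaged 119 CPM in EAE and 44.7 CPM in healthy NeuN-positive nuclei, and 68.5 CPM in EAE and 30.9 CPM in healthy NeuN-negative nuclei, before TMM scaling. Hk2, Slc16a3, Slc16a1, Aldoc, H6pd and Tkt shared 0% of the 50-base stretches with other genes. Ldha shared 9.26%, and Pgls, G6pdx, Gpi1 and Rpe shared 18.85, 16.9, 15.8 and 15.4%, so the limit on reads matching several genes applies to them too.

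**Figure D1:**
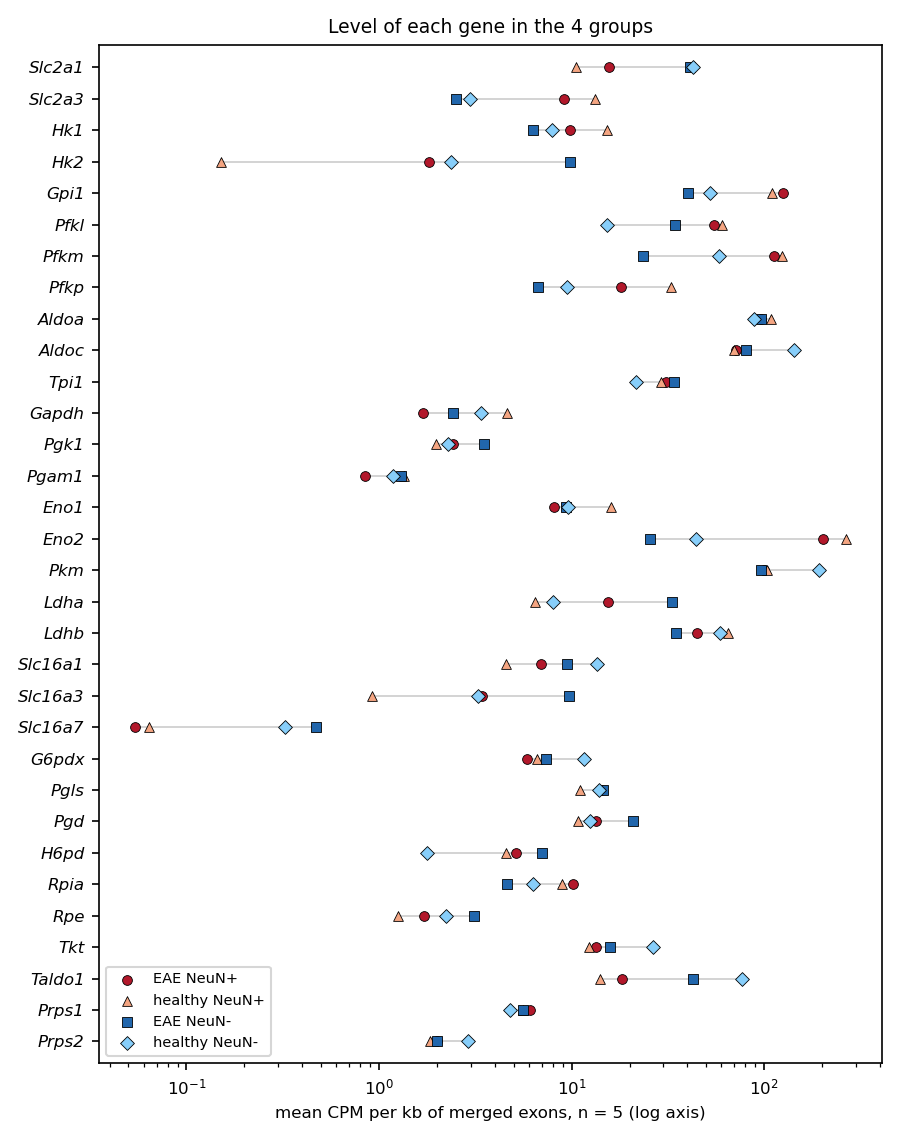
Mean level of each of the 32 genes in the 4 groups of 5 libraries, in CPM per kilobase of merged exons on a log axis. Points of a gene are joined by a grey line; Eno2 is highest in NeuN-positive nuclei, Slc16a7 lowest in all groups, and Hk2 spans the widest range.

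In NeuN-positive nuclei 3 genes rose in EAE: Hk2, of glucose phosphorylation, Ldha, of lactate formation, and Slc16a3, of lactate export. No other gene of the set passed as higher. A single gene fell, Eno1. The test was edgeR's quasi-likelihood test with Benjamini-Hochberg adjustment over all genes, and a gene counts as changed at an adjusted p under 0.05. By this rule 3 of 32 genes rose and 1 fell, against 6.55% of all genes tested higher and 3.68% lower. The median log2 fold change was 0.19 over the 32 genes and -0.03 over all genes. Over the 22 genes of glucose uptake, glycolysis and lactate handling it was -0.07, and 10 of these 22 had a positive log2 fold change. In 3 of the 32 genes all EAE libraries lay above all healthy ones, against 5.16% of all genes, and in 2 all lay below, against 4.75%.

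Hk2 (chr6:82725025-82774454, minus strand, GRCm38) is the inducible hexokinase that traps glucose as glucose 6-phosphate. It had 8.48, 11.8, 20.1, 3.74 and 10.2 CPM in EAE NeuN-positive, against 0.949, 0.877, 1.59, 0.685 and 0.421 CPM in healthy NeuN-positive nuclei. Every EAE library was above every healthy one, and the healthy values rest on 10 to 27 reads per library. Its log2 fold change was 3.69 ± 0.51 (SE), a 12.9-fold higher level (edgeR, adjusted p = 0.000384). The constitutive hexokinase Hk1 did not pass the test, with a log2 fold change of -0.57 ± 0.21 (edgeR, adjusted p = 0.0949), although it passed when EAE replicate 3 was left out (-0.71, adjusted p = 0.0312).

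Ldha, the lactate dehydrogenase subunit linked to lactate formation, had 38.9, 75.0, 56.9, 43.7 and 41.7 CPM in EAE NeuN-positive, against 20.9, 20.5, 18.9, 21.9 and 24.7 CPM in healthy NeuN-positive nuclei. The groups did not overlap, and the 5 healthy libraries lay close together. Its log2 fold change was 1.36 ± 0.24, or 2.56-fold (edgeR, adjusted p = 0.00250). Ldhb, the subunit linked to lactate use, had 77.6, 82.6, 76.6, 55.7 and 59.2 CPM in EAE, against 101, 108, 92.1, 118 and 94.4 CPM in healthy NeuN-positive nuclei. All 5 EAE values lay below all 5 healthy ones, yet the log2 fold change of -0.46 ± 0.19 did not pass the test (edgeR, adjusted p = 0.140).

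Slc16a3, the lactate exporter MCT4, had 13.7, 24.0, 23.3, 13.1 and 17.1 CPM in EAE, against 4.25, 4.09, 8.25, 5.48 and 2.42 CPM in healthy NeuN-positive nuclei. The groups did not overlap, and the log2 fold change was 1.98 ± 0.36, or 3.95-fold (edgeR, adjusted p = 0.00339). The other carriers did not pass: on the log2 scale Slc16a1 (MCT1) differed by 0.70 ± 0.29 (adjusted p = 0.136) and Slc16a7 by -0.17 ± 0.56 (adjusted p = 0.864), by the same edgeR test.

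Eno1, the general enolase, had 36.6, 45.9, 71.7, 34.0 and 31.0 CPM in EAE, against 90.9, 90.2, 80.0, 96.0 and 73.4 CPM in healthy NeuN-positive nuclei. Every EAE value was below every healthy one, with EAE replicate 3 near the lowest healthy value. The log2 fold change was -0.89 ± 0.24 (edgeR, adjusted p = 0.0336). The call was lost when any of EAE replicates 1, 4 and 5 or healthy replicates 1, 2 and 4 was left out, with log2 fold changes of -0.90 to -0.79 and adjusted p of 0.0736 to 0.0867. By edgeR it was also lost without EAE 2, EAE 4 and healthy 3 (-0.79, adjusted p = 0.0967) and with the mitochondrial share as a covariate (-0.91, adjusted p = 0.0829).

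Gapdh, the dehydrogenase midway through glycolysis, lay just outside the threshold. It had 3.49, 13.6, 10.3, 3.17 and 4.40 CPM in EAE, against 19.8, 23.4, 11.5, 19.0 and 21.4 CPM in healthy NeuN-positive nuclei, with EAE replicate 2 inside the healthy range. Its log2 fold change was -1.34 ± 0.42 (edgeR, adjusted p = 0.0556). By edgeR it passed when EAE replicate 2 (-1.76, adjusted p = 0.0159), EAE replicate 3 (-1.52, adjusted p = 0.0359) or healthy replicate 3 (-1.49, adjusted p = 0.0316) was left out, and without EAE 2, EAE 4 and healthy 3 (-1.66, adjusted p = 0.0212). Pfkp, the platelet-type phosphofructokinase, had a log2 fold change of -0.79 ± 0.27 (edgeR, adjusted p = 0.0786) and passed without EAE replicate 3 (-1.01, adjusted p = 0.0200).

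None of the 10 genes of the pentose phosphate pathway and PRPP synthesis passed in NeuN-positive nuclei by edgeR. At an unadjusted p under 0.05 there was 1, the DESeq2 Wald test called 0 and limma voom with quality weights called 3. Over all genes the Wald test called 17.9% and limma voom 46.2% in either direction. Log2 fold changes of the 10 genes by edgeR ran from -0.08 for G6pdx, the entry enzyme, to 0.55 for Rpe, the epimerase. Pgd, which makes the second NADPH, had 75.7, 86.2, 97.9, 89.2 and 82.1 CPM in EAE, against 69.8, 73.2, 64.9, 79.2 and 59.4 CPM in healthy NeuN-positive nuclei, a log2 fold change of 0.40 ± 0.18 (edgeR, adjusted p = 0.161).

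**Figure D2:**
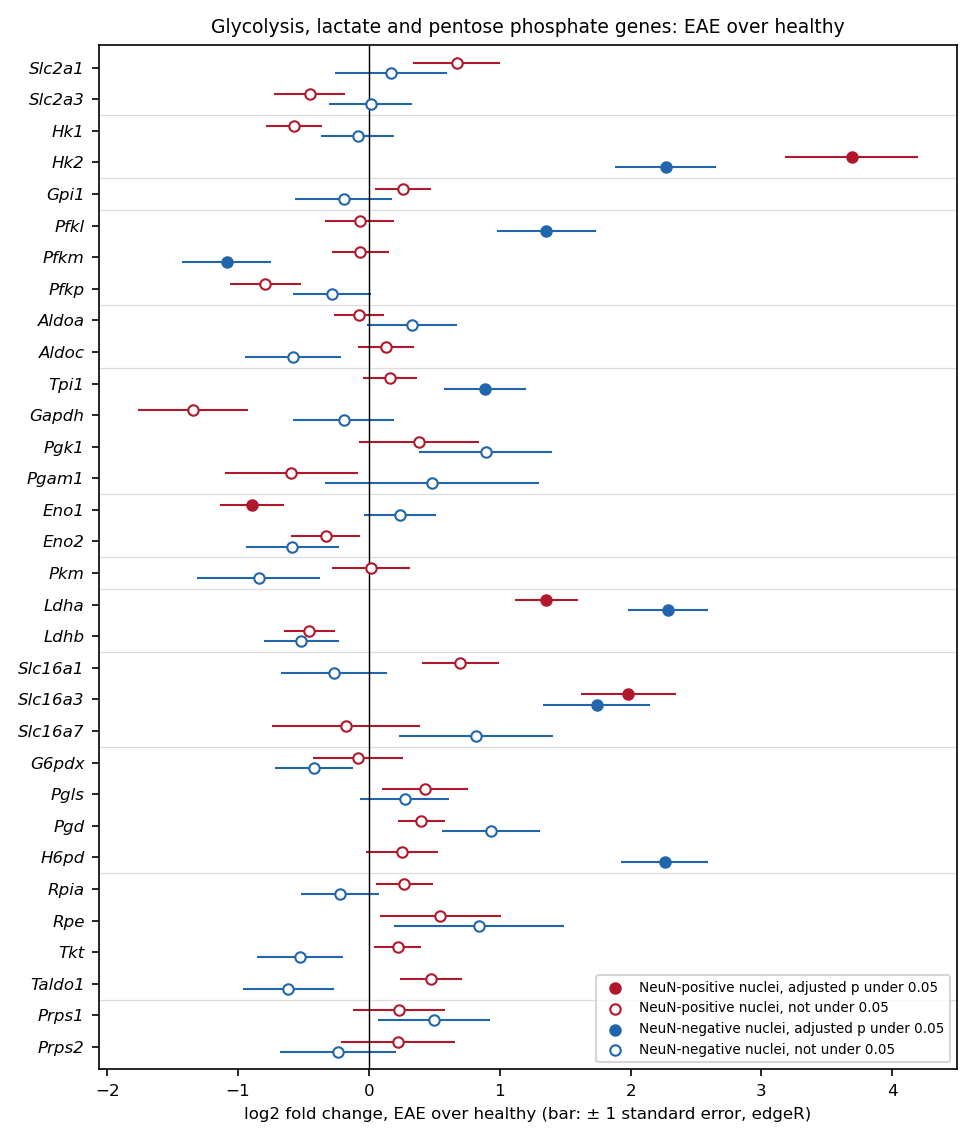
Log2 fold change of the 32 genes, EAE over healthy, with ± 1 standard error, in NeuN-positive (red) and NeuN-negative (blue) nuclei; filled points have an adjusted p under 0.05. Hk2, Ldha and Slc16a3 are filled and right of 0 in both sorts, while Eno1 is filled in NeuN-positive nuclei, and Pfkl, Tpi1, H6pd (right) and Pfkm (left) in NeuN-negative nuclei.

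In NeuN-negative nuclei, which hold glia, vascular cells and infiltrating immune cells, the same 3 genes rose with EAE, joined by Pfkl, Tpi1 and H6pd, and Pfkm fell. The 6 rises of 32 stand against 15.1% of all genes tested higher, and the 1 fall against 12.6% lower; in either direction 7 of 32 passed, against 27.7% of all genes. In 2 of the 32 genes all EAE libraries lay above all healthy ones, against 7.04% of all genes, and in 1 all lay below, against 11.6%. The median log2 fold change was 0.09 over the 32 genes and 0.05 over all genes. A total of 3 genes passed in both sorts and 24 in neither. The share of all genes that passed in both sorts was not counted, so this overlap has no background to be read against.

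Ldha had 157, 71.2, 111, 81.9 and 125 CPM in EAE NeuN-negative, against 26.1, 21.9, 19.8, 20.4 and 45.2 CPM in healthy NeuN-negative nuclei. The groups did not overlap, although healthy replicate 5 stood apart from the other healthy libraries. Ldha thus had a log2 fold change of 2.29 ± 0.30, or 4.87-fold (edgeR, adjusted p = 6.63e-05). Ldhb did not pass, at -0.52 ± 0.29 (edgeR, adjusted p = 0.184).

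Hk2 had 77.1, 14.8, 96.9, 31.2 and 73.9 CPM in EAE, against 16.7, 17.7, 12.4, 10.4 and 13.1 CPM in healthy NeuN-negative nuclei. The shallow library EAE 2 lay inside the healthy range and the other 4 lay above it. The log2 fold change was 2.27 ± 0.39, or 4.81-fold (edgeR, adjusted p = 0.000600), and 2.76 without EAE 2, EAE 4 and healthy 3 (adjusted p = 9.87e-06).

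Slc16a3 had 79.1, 14.5, 65.0, 31.4 and 67.9 CPM in EAE, against 15.7, 16.3, 29.7, 16.3 and 9.36 CPM in healthy NeuN-negative nuclei. Again EAE 2 fell inside the healthy range and the other EAE libraries lay above it. The log2 fold change was 1.74 ± 0.41, or 3.34-fold (edgeR, adjusted p = 0.00597).

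The 3 phosphofructokinase genes, whose product catalyses the committed step of glycolysis, moved apart in NeuN-negative nuclei. Pfkl, the liver-type form, had 327, 81.6, 309, 142 and 287 CPM in EAE, against 114, 87.8, 141, 92.0 and 74.8 CPM in healthy NeuN-negative nuclei. Its log2 fold change was 1.35 ± 0.38 (edgeR, adjusted p = 0.0156), with EAE 2 inside the healthy range. The call was lost when healthy replicate 2, 4 or 5 was left out, at log2 fold changes of 1.18 to 1.25 and adjusted p of 0.0514 to 0.0668. Pfkm had 132, 27.7, 86.6, 64.1 and 80.8 CPM in EAE, against 231, 195, 139, 166 and 238 CPM in healthy NeuN-negative nuclei. No library of the groups overlapped, and the log2 fold change was -1.09 ± 0.34 (edgeR, adjusted p = 0.0263). By edgeR that call was lost without EAE replicate 4 or 5 or healthy replicate 1 or 2 (-1.17 to -1.05, adjusted p 0.0549 to 0.0732), and with the mitochondrial share as a covariate (-0.43, adjusted p = 0.471). Pfkp did not pass, at -0.28 ± 0.30 (edgeR, adjusted p = 0.502).

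Tpi1, the triose phosphate isomerase, had 151, 47.9, 104, 78.5 and 89.5 CPM in EAE, against 43.5, 42.8, 55.1, 58.8 and 98.7 CPM in healthy NeuN-negative nuclei. The groups overlapped, and the log2 fold change of 0.89 ± 0.32 passed narrowly (edgeR, adjusted p = 0.0460). Leaving out any of EAE replicates 1, 3, 4 and 5 or healthy replicates 1, 2, 3 and 4 ended the call, with log2 fold changes of 0.66 to 0.90 and adjusted p of 0.0746 to 0.186.

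H6pd (chr4:149979475-150009023, minus strand, GRCm38) makes the first oxidative step of the pentose phosphate route inside the endoplasmic reticulum. It had 40.7, 54.8, 33.7, 32.4 and 21.6 CPM in EAE, against 11.2, 9.22, 9.39, 6.71 and 9.95 CPM in healthy NeuN-negative nuclei. The groups did not overlap, and the log2 fold change was 2.26 ± 0.33, or 4.79-fold (edgeR, adjusted p = 0.000151). Its cytosolic counterpart G6pdx did not pass, at -0.42 ± 0.30 (edgeR, adjusted p = 0.301). Pgd, with 206, 49.8, 213, 52.4 and 152 CPM in EAE and 89.1, 102, 65.0, 74.8 and 70.8 CPM in healthy NeuN-negative nuclei, had a log2 fold change of 0.94 ± 0.37 (edgeR, adjusted p = 0.0711). By edgeR, Pgd passed without EAE replicate 2 or 4 (1.15 each, adjusted p = 0.0258 and 0.0456) and without EAE 2, EAE 4 and healthy 3 (1.42, adjusted p = 0.000761), which also left Pgls, the lactonase, past the threshold (0.80, adjusted p = 0.0350). Pgd passed as well with the mitochondrial share as a covariate. The non-oxidative enzymes Tkt and Taldo1 had log2 fold changes of -0.52 ± 0.33 and -0.62 ± 0.35, which did not pass (edgeR, adjusted p = 0.239 and 0.190).

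**Figure D3:**
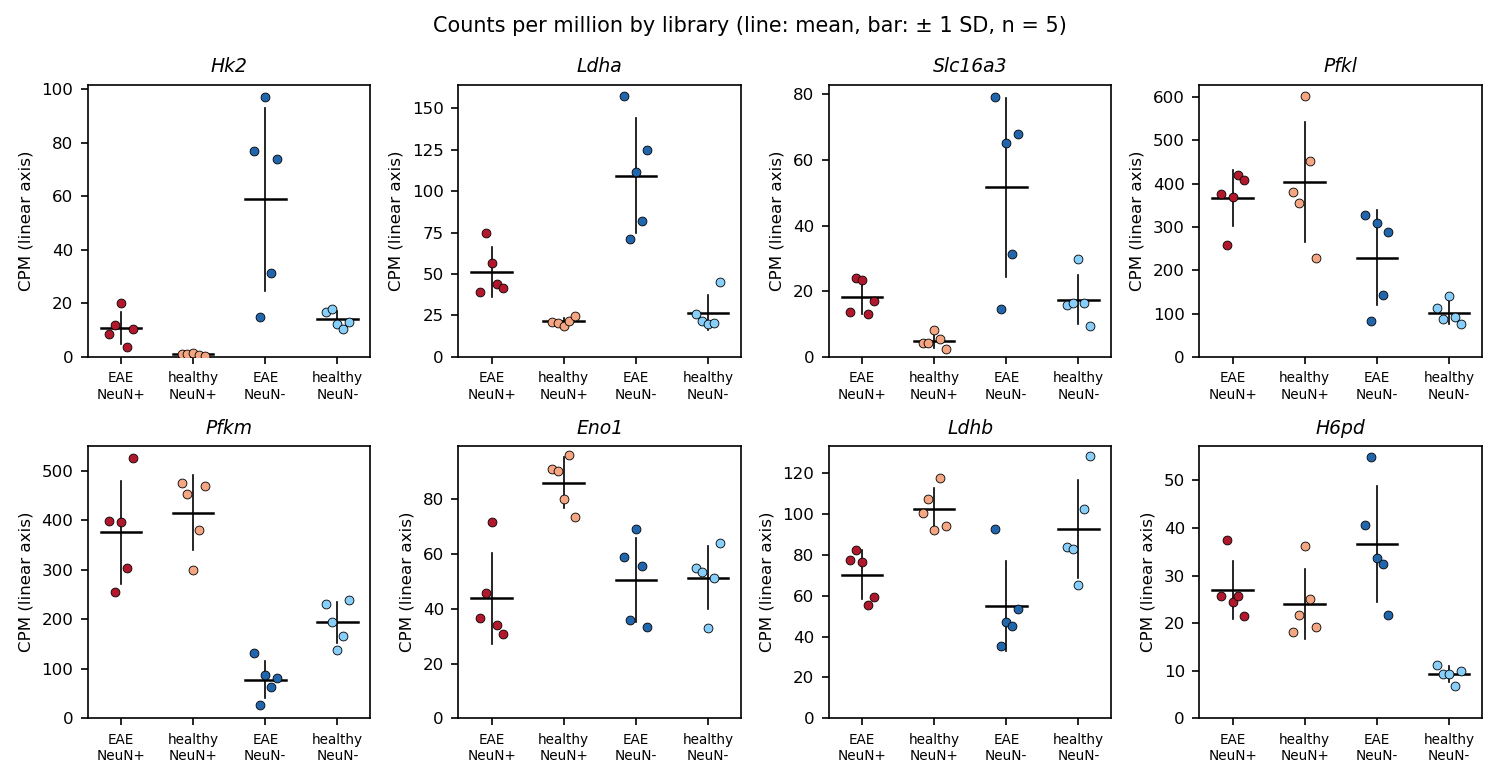
CPM of 8 genes in each of the 20 libraries, on linear axes from 0, with points of a group set left to right by replicate number, the mean as a line and ± 1 SD as a bar (n = 5). Hk2, Ldha and Slc16a3 are higher in EAE than in healthy nuclei of both sorts, H6pd and Pfkl are higher in EAE in NeuN-negative nuclei, and Pfkm is lower there.

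Most tested markers of infiltrating immune cells also rose in EAE in both sorts. The summed markers of resident microglia were higher without overlap in NeuN-positive nuclei only. All 10 markers of monocytes and macrophages rose in EAE in both sorts, 7 of 9 tested neutrophil markers rose in NeuN-positive and 8 of 9 in NeuN-negative nuclei, and 5 of 6 tested T cell markers rose in NeuN-positive and 10 of 10 in NeuN-negative nuclei. Neutrophil markers summed to 31.2 to 172 CPM in EAE, against 13.0 to 25.5 CPM in healthy NeuN-positive nuclei, and to 137 to 565 CPM in EAE, against 88.6 to 138 CPM in healthy NeuN-negative nuclei. T cell markers summed to 19.4 to 87.9 CPM in EAE, against 6.21 to 12.1 CPM in healthy NeuN-positive nuclei, and to 109 to 268 CPM in EAE, against 5.52 to 13.1 CPM in healthy NeuN-negative nuclei. Microglia markers summed to 105 to 197 CPM in EAE, against 25.6 to 53.6 CPM in healthy NeuN-positive nuclei, with no overlap, and to 377 to 1379 CPM in EAE, against 600.1 to 735 CPM in healthy NeuN-negative nuclei. Of these markers 3 of 9 tested rose in NeuN-positive nuclei, among them Csf1r, a receptor that microglia share with macrophages, at 60.6 ± 24.3 CPM in EAE and 6.66 ± 2.31 CPM in healthy mice (SD, n = 5 each), and 2 of 10 rose and 1 fell in NeuN-negative nuclei. No marker of these lists was at 0 in all libraries of a group. Hk3, the hexokinase of myeloid blood cells, which is outside the set, averaged 19.5 ± 12.9 CPM in EAE, against 1.11 ± 0.256 CPM in healthy NeuN-positive nuclei, and 143 ± 129 CPM in EAE, against 14.8 ± 3.46 CPM in healthy NeuN-negative nuclei (SD, n = 5 each). Its log2 fold changes were 4.19 ± 0.44 and 3.45 ± 0.50 (edgeR, adjusted p = 4.83e-05 and 0.000149). In NeuN-negative nuclei 7 of 12 oligodendrocyte markers and 4 of 10 astrocyte markers fell at the same time. The summed oligodendrocyte markers did not fall there, at 32530 to 110300 CPM in EAE (median 65050), against 42310 to 71880 CPM in healthy mice (median 51360). Astrocyte markers summed to 830 to 2711 CPM in EAE, against 2221 to 3885 CPM in healthy NeuN-negative nuclei. The part of these cells in the changes of the glycolytic genes was not tested.

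Promoter sequences are shown for the 3 genes that rose in both sorts and for Ldhb, which pairs with Ldha in the same enzyme and did not pass in either sort. Each is the 250 bases before the first start listed by RefSeq on GRCm38.p6, 5′ to 3′ on the gene's strand, and capitals mark ACGTG, the core of the hypoxia response element bound by hypoxia-inducible factors, or its reverse complement CACGT.
Hk2 (chr6:82774455-82774704, minus strand): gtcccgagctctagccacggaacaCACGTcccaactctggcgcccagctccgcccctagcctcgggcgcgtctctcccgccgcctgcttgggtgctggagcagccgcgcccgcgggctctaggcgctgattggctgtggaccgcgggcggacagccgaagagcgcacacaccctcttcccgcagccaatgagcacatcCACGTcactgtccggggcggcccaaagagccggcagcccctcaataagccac
Ldha (chr7:46845554-46845803, plus strand): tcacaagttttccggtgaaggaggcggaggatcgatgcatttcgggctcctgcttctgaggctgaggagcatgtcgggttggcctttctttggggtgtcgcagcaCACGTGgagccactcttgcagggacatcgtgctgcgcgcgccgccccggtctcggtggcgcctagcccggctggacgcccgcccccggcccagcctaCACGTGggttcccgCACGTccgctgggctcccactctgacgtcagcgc
Slc16a3 (chr11:120948817-120949066, plus strand): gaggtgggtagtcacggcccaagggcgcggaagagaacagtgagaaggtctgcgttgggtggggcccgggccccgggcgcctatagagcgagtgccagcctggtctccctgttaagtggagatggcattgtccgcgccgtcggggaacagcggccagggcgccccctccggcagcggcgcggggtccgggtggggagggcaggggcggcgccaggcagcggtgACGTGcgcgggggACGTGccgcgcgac
Ldhb (chr6:142507958-142508207, minus strand): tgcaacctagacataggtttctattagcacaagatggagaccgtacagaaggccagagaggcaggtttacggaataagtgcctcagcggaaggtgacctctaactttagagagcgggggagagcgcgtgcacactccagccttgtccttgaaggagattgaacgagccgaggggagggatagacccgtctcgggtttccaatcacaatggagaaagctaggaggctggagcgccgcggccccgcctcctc
Runs of ACGTG on either strand, with overlapping matches on both strands counted once, began 226 and 52 bases before the start in Hk2, 145, 48 and 34 bases before it in Ldha, and 27 and 14 bases before it in Slc16a3. Ldhb held 0. The other start listed for Ldha, downstream of the first, held 0 in its own 250 bases. Of the 30 genes of the set with a listed promoter, 8 held a run and 4 held at least 2, the fourth being Pgk1. Among the promoters of 27025 genes, 16.6% held a run and 2.02% held at least 2. A match is a description of letters, and binding was not measured.

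The EAE effect was compared between the sorts by an interaction over the 20 libraries. H6pd was the 1 gene of 32 that passed, with a difference of -1.82 ± 0.42 on the log2 scale, NeuN-positive minus NeuN-negative (edgeR, adjusted p = 0.0208). Lower differences passed for 0.822% of all genes and higher ones for 1.74%. H6pd had 25.8, 37.6, 24.4, 25.6 and 21.5 CPM in EAE, against 18.1, 21.7, 36.2, 25.1 and 19.2 CPM in healthy NeuN-positive nuclei, where the groups overlapped. The call was lost when EAE NeuN-positive replicate 1, healthy NeuN-positive replicate 2 or healthy NeuN-negative replicate 2 or 4 was left out (-1.81 to -1.67, adjusted p 0.0563 to 0.0626). No gene passed with a higher effect in NeuN-positive nuclei by edgeR. In either direction 7 genes had an unadjusted p under 0.05, and for higher effects the DESeq2 Wald test called 0 and limma voom with quality weights 7. Over all genes the Wald test called 7.39% and limma voom 24.1% in either direction.

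The replicate numbers were taken to pair the sorts, by inference from how the libraries deviated. With the number as a block 3 genes passed in each direction, against 12.2% of all genes in either direction. The blocked differences were 1.66 for Hk2, 1.25 for Pfkm and 1.15 for Slc16a1, and -1.75 for H6pd, -1.13 for Pfkl and -1.001 for Eno1 (edgeR, adjusted p = 0.0476, 0.0143, 0.0273, 0.00364, 0.0390 and 0.0348 in this order). Without the block those of Hk2 and Pfkl were 1.56 ± 0.62 and -1.32 ± 0.48 (edgeR, adjusted p = 0.171 and 0.135). By edgeR, Pfkl also passed without EAE NeuN-negative replicate 2 (-1.59, adjusted p = 0.0430) and without EAE 2, EAE 4 and healthy 3, at -1.78 (adjusted p = 0.00768), as did Pgd, at -1.06 (adjusted p = 0.0464). With the mitochondrial share as a covariate Pfkl passed as well. The difference for Ldha was -0.79 ± 0.41 and that for Slc16a3 was 0.33 ± 0.56, and neither passed (edgeR, adjusted p = 0.311 and 0.806). With DESeq2 size factors the median difference of all genes shifted by -0.257, being -0.107, against 0.145 with TMM scaling.

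In healthy mice the glucose transporters and the hexokinases split between the sorts, with Slc2a3 and Hk1 higher and Slc2a1 and Hk2 lower in NeuN-positive nuclei, while all 3 phosphofructokinases were higher and all 3 monocarboxylate transporters lower. In healthy NeuN-positive against healthy NeuN-negative nuclei 10 of the 32 genes were higher and 9 were lower, where 22.8% of all genes tested higher, 23.0% lower and 45.8% in either direction. In 10 of the 32 all NeuN-positive libraries lay above all NeuN-negative ones and in 7 below, against 16.6% and 17.2% of all genes. The median log2 fold change was 0.02 over the 32 genes and -0.01 over all genes. The others higher were Gpi1, both enolases, H6pd and Rpia, and the others lower were Aldoc, G6pdx, Tkt and Taldo1.

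Among the glucose transporters, Slc2a3 (GLUT3), known as the transporter of neurons, had 106, 110, 48.6, 87.9 and 126 CPM in healthy NeuN-positive, against 15.9, 21.1, 18.7, 18.1 and 33.4 CPM in healthy NeuN-negative nuclei. The groups did not overlap, at a log2 fold change of 2.19 ± 0.28 (edgeR, adjusted p = 4.71e-05). Slc2a1 (GLUT1), known from the blood-brain barrier and glia, had 67.3, 33.0, 21.4, 32.1 and 30.7 CPM in healthy NeuN-positive, against 210, 145, 59.7, 110 and 225 CPM in healthy NeuN-negative nuclei. One healthy NeuN-positive library reached into the NeuN-negative range, and the log2 fold change was -1.96 ± 0.36 (edgeR, adjusted p = 0.000716).

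Of the enzymes, Eno2 differed most upward, with 1082, 1083, 1791, 1351 and 986 CPM in healthy NeuN-positive, against 127, 135, 235, 261 and 287 CPM in healthy NeuN-negative nuclei. Its log2 fold change was 2.62 ± 0.32 (edgeR, adjusted p = 3.20e-05), and no libraries overlapped. The log2 fold changes of Pfkl, Pfkp and Pfkm were 2.01 ± 0.30, 1.84 ± 0.17 and 1.15 ± 0.19, and those of Gpi1 and Hk1 were 1.11 ± 0.22 and 0.98 ± 0.17, each with groups that did not overlap. Hk2 differed most downward, at -3.95 ± 0.37, a level 0.0648 times that of healthy NeuN-negative nuclei (edgeR, adjusted p = 3.98e-06).

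The carriers of lactate were lower in NeuN-positive nuclei without exception: Slc16a7 at -2.31 ± 0.37, Slc16a3 at -1.83 ± 0.41 and Slc16a1 at -1.51 ± 0.38 on the log2 scale (edgeR, adjusted p = 0.000234, 0.00276 and 0.00552). Slc16a7, known as a transporter of neurons in the brain, had 0.549, 0.714, 0.695, 1.03 and 0.807 CPM in healthy NeuN-positive, against 2.64, 4.30, 4.63, 4.55 and 3.14 CPM in healthy NeuN-negative nuclei. The NeuN-positive values rest on 7 to 23 reads per library, and the groups did not overlap. Slc16a1 did overlap, with 10.2 to 29.9 CPM in healthy NeuN-positive and 21.2 to 115 CPM in healthy NeuN-negative nuclei.

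In the pentose phosphate pathway Taldo1, transaldolase of the non-oxidative branch, had 29.8, 30.5, 27.9, 32.9 and 30.7 CPM in healthy NeuN-positive, against 197, 220, 98.3, 160 and 154 CPM in healthy NeuN-negative nuclei. The log2 fold change of -2.39 ± 0.19 (edgeR, adjusted p = 1.14e-06) came with groups far apart. Tkt, transketolase of the same branch, was lower at -1.06 ± 0.15 and G6pdx at -0.76 ± 0.19, while H6pd was higher at 1.42 ± 0.26 (edgeR, adjusted p = 7.84e-05, 0.00615 and 0.000695). Rpia, the ribose phosphate isomerase, passed at 0.53 ± 0.19 (edgeR, adjusted p = 0.0337), and that call was lost without healthy NeuN-positive replicate 1 or 2 or healthy NeuN-negative replicate 1, 2, 4 or 5 (0.42 to 0.56, adjusted p 0.0535 to 0.0881).

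With the replicate number as a block 12 genes were higher and 13 lower in healthy mice, where 65.6% of all genes passed. The block added Tpi1 at 0.53 and Aldoa at 0.33 as higher, and Pkm at -0.86, Rpe at -0.66, Prps2 at -0.56 and Pgls at -0.29 as lower (edgeR, adjusted p = 0.00938, 0.0163, 4.62e-05, 0.0314, 0.0153 and 0.0235 in this order). Unblocked, Pkm had a log2 fold change of -0.89 ± 0.38 (edgeR, adjusted p = 0.0760) and passed without healthy NeuN-positive replicate 3 (-1.17, adjusted p = 0.0202) or healthy NeuN-negative replicate 5 (-1.09, adjusted p = 0.0310). By edgeR, Tpi1 passed without healthy NeuN-negative replicate 5 (0.68, adjusted p = 0.0204), and Gapdh without healthy NeuN-positive replicate 3 (0.59, adjusted p = 0.0383). Without healthy replicate 3 in both sorts, Gapdh (0.63, adjusted p = 0.0243) and Pkm (-0.87, adjusted p = 0.0316) passed by edgeR. With the mitochondrial share as a covariate Prps2 passed as lower.

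**Figure D4:**
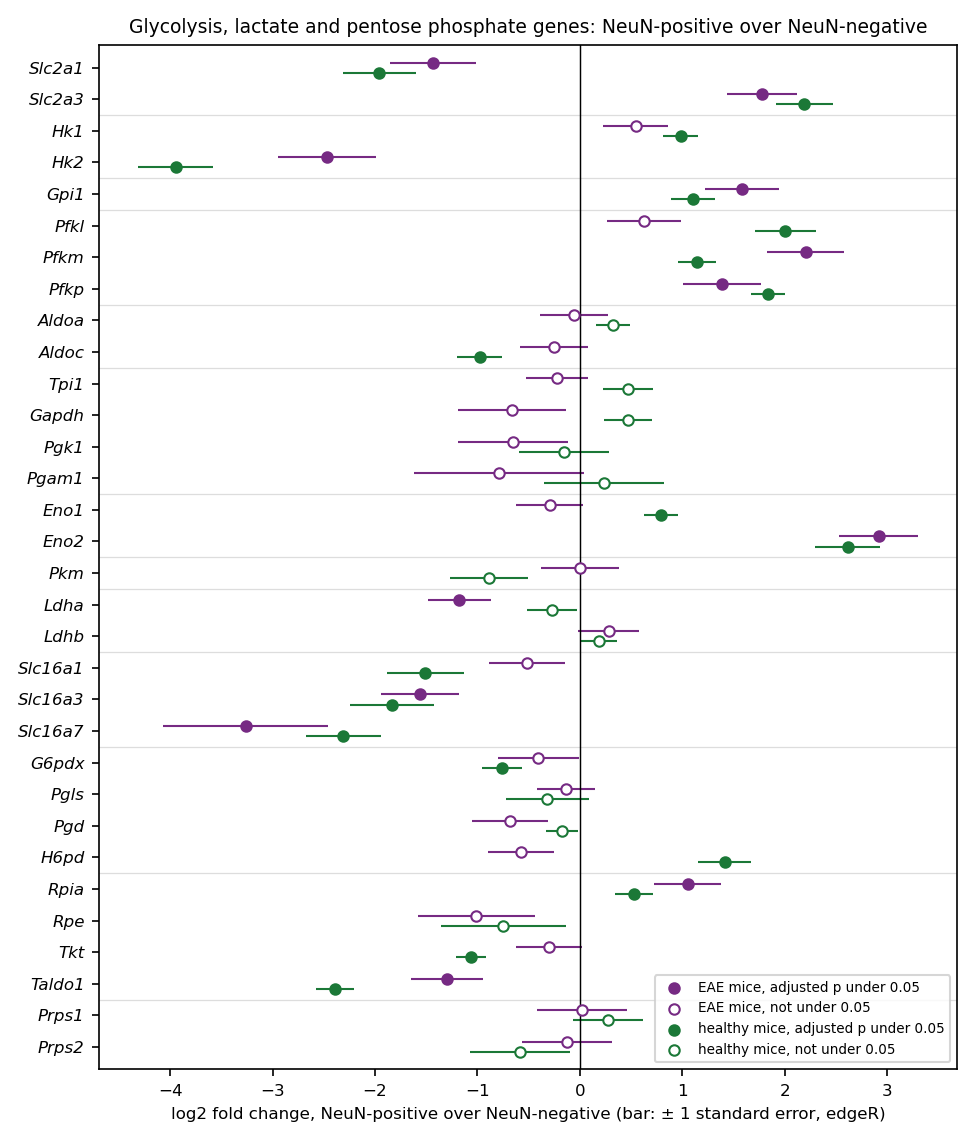
Log2 fold change of the 32 genes, NeuN-positive over NeuN-negative, with ± 1 standard error, in EAE (purple) and healthy (green) mice; filled points have an adjusted p under 0.05. Eno2, Slc2a3, Gpi1, Pfkm, Pfkp and Rpia are filled right of 0 and Slc2a1, Hk2, Slc16a3, Slc16a7 and Taldo1 filled left of 0 in both states.

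The same comparison in EAE mice gave 6 genes higher and 6 lower in NeuN-positive nuclei, where 15.5% of all genes tested higher, 14.8% lower and 30.3% in either direction. In 4 of the 32 all NeuN-positive libraries lay above all NeuN-negative ones and in 1 below, against 12.3% and 7.15% of all genes. The genes higher in both states were Slc2a3, Gpi1, Pfkm, Pfkp, Eno2 and Rpia, and those lower in both were Slc2a1, Hk2, Slc16a3, Slc16a7 and Taldo1. Eno2 had 961, 616, 949, 1354 and 882 CPM in EAE NeuN-positive, against 182, 52.0, 133, 118 and 115 CPM in EAE NeuN-negative nuclei, with no overlap and a log2 fold change of 2.92 ± 0.38 (edgeR, adjusted p = 4.71e-05). Ldha was lower in NeuN-positive nuclei at -1.18 ± 0.31 in EAE (edgeR, adjusted p = 0.00818), where leaving out EAE NeuN-positive replicate 1 gave -1.05 (adjusted p = 0.0514), and stood at -0.27 ± 0.24 in healthy mice (edgeR, adjusted p = 0.392). The call of Slc2a1, at -1.43 ± 0.42 (edgeR, adjusted p = 0.0158), was lost without EAE NeuN-positive replicate 4 or 5 or EAE NeuN-negative replicate 1, the last of which left -0.90 (adjusted p = 0.0863; the range of adjusted p over the 3 was 0.0618 to 0.0863). The call of Rpia at 1.05 ± 0.33 (edgeR, adjusted p = 0.0219) was lost without EAE NeuN-positive replicate 1 or 5 or EAE NeuN-negative replicate 4 (0.91 to 1.03, adjusted p 0.0501 to 0.0704). The mitochondrial share as a covariate also ended the call of Rpia and left Pgd past the threshold as lower. With the block the counts stayed at 6 and 6, against 37.8% of all genes. Without EAE 2 and EAE 4 they were 6 and 9, against 41.7% of all genes, with Pgk1 (-1.15), Pgd (-1.17) and Tkt (-0.64) added as lower (edgeR, adjusted p = 0.0309, 0.00255 and 0.0304).

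Isoform balance was measured as the log2 ratio of 2 isoform genes in each library, computed on CPM plus 0.5 and compared by an exact permutation test over all regroupings, two-sided, with Benjamini-Hochberg adjustment over 36 tests of 9 ratios. The smallest p this design allows is 0.00794. The ratios are not corrected for gene length, so a log2 ratio of 0 does not mean equal levels. The log2 ratio of Ldha to Ldhb was -0.99, -0.14, -0.43, -0.34 and -0.50 in EAE NeuN-positive, against -2.24, -2.36, -2.26, -2.40 and -1.91 in healthy NeuN-positive nuclei. In NeuN-negative nuclei it was 0.76, 0.99, 1.23, 0.84 and 1.22 in EAE, against -1.66, -1.89, -1.70, -2.31 and -1.50 in healthy mice. The EAE and healthy libraries did not overlap in either sort, and the counts of Ldha exceeded those of Ldhb in every EAE NeuN-negative library and in no healthy one. The differences were 1.76 and 2.82 (exact permutation test, adjusted p = 0.0190 for each), while the healthy sorts differed by -0.42 (exact permutation test, adjusted p = 0.0779).

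The log2 ratio of Hk2 to Hk1 averaged -3.02 ± 0.76 in EAE and -6.58 ± 0.40 in healthy NeuN-positive nuclei, and -0.09 ± 1.01 in EAE and -2.24 ± 0.44 in healthy NeuN-negative nuclei (SD, n = 5 each). The differences of 3.56 and 2.15 both passed (exact permutation test, adjusted p = 0.0190 and 0.0336). In NeuN-negative nuclei the log2 ratio of Pfkl to Pfkm was 1.31, 1.54, 1.83, 1.14 and 1.82 in EAE, against -1.02, -1.15, 0.02, -0.85 and -1.66 in healthy mice, a difference of 2.46 with no overlap (exact permutation test, adjusted p = 0.0190). Unlike the CPM of Pfkl, this ratio placed the shallow library EAE 2 with the other EAE libraries. In NeuN-positive nuclei the same ratio differed by 0.08 (exact permutation test, adjusted p = 0.857).

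Pfkp to Pfkm was lower by a log2 difference of -0.79 in EAE than in healthy NeuN-positive nuclei and higher by 0.84 in EAE than in healthy NeuN-negative nuclei (exact permutation test, adjusted p = 0.0336 and 0.0190). The first was lost when any of healthy replicates 1 to 4 was left out (-0.80 to -0.74, adjusted p 0.0544 to 0.0571). Aldoc to Aldoa was lower by -0.86 in EAE than in healthy NeuN-negative nuclei (exact permutation test, adjusted p = 0.0429), which was lost without any of EAE replicates 1, 3, 4 and 5 or healthy replicates 1, 2, 4 and 5 (-0.94 to -0.70, adjusted p 0.0520 to 0.0816). Slc2a3 to Slc2a1 differed by -1.12 between EAE and healthy NeuN-positive nuclei (exact permutation test, adjusted p = 0.0544) and passed without EAE replicate 5 (-1.31, adjusted p = 0.0451) or healthy replicate 1 (-1.30, adjusted p = 0.0336). Between the healthy sorts, 5 of the 9 ratios passed: Slc2a3 to Slc2a1 at 4.08, Eno2 to Eno1 at 1.87, Pfkp to Pfkm at 0.68, Aldoc to Aldoa at -1.27 and Hk2 to Hk1 at -4.34 (exact permutation test, adjusted p = 0.0190 for each). These tests do not use the inferred pairing of the sorts, and an exact test over 5 pairs cannot go below p = 0.0625. Within the healthy pairs, NeuN-positive minus NeuN-negative, 8 of the 9 ratios had 1 sign in all 5 pairs. They include Pfkl to Pfkm (0.62 to 1.10), Ldha to Ldhb (-0.58 to -0.09) and Prps2 to Prps1 (-1.26 to -0.44), which did not pass unpaired. Unpaired, Pfkl to Pfkm passed without healthy NeuN-negative replicate 3 (1.08, adjusted p = 0.0497) and Ldha to Ldhb without healthy NeuN-negative replicate 4 (-0.55, adjusted p = 0.0357), both by the exact permutation test. Between the EAE sorts 7 of the 9 passed, and the same 7 had 1 sign in all pairs. They were the ratios of Eno2 to Eno1 at 3.26, Slc2a3 to Slc2a1 at 3.05, Ldha to Ldhb at -1.49, Pfkl to Pfkm at -1.54 and Hk2 to Hk1 at -2.93 (exact permutation test, adjusted p = 0.0190 for each), and of Pfkp to Pfkm at -0.95 and Slc16a7 to Slc16a1 at -1.96 (exact permutation test, adjusted p = 0.0429 for both). Pfkp to Pfkm was lost without EAE NeuN-positive replicate 1, 2, 4 or 5 or EAE NeuN-negative replicate 1, 2 or 3 (-1.02 to -0.76, adjusted p 0.0571 to 0.0909 by the exact permutation test). Slc16a7 to Slc16a1 was lost without any EAE NeuN-positive replicate or without EAE NeuN-negative replicate 2 (-2.15 to -1.55, adjusted p 0.0571 to 0.0909 by the exact permutation test).

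**Figure D5:**
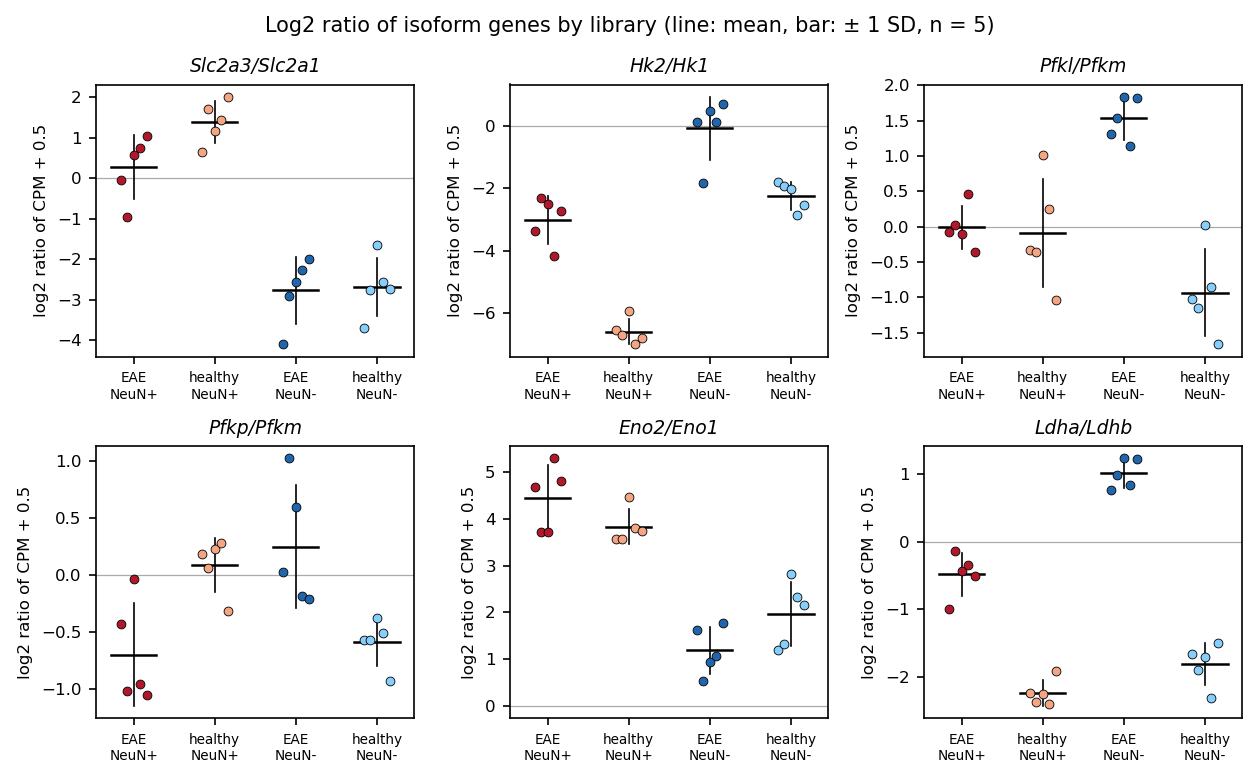
Log2 ratio of CPM plus 0.5 of 6 pairs of isoform genes in each of the 20 libraries, with points of a group set left to right by replicate number, the mean as a line and ± 1 SD as a bar (n = 5). The ratio of Ldha to Ldhb is above 0 in all 5 EAE NeuN-negative libraries and below 0 in the other 15, and the ratio of Slc2a3 to Slc2a1 separates the sorts. Ratios are not corrected for gene length, so 0 does not mark equal levels.

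Other genes of the pathways around the set were counted from 4 lists, to be read against the 6.55% of all genes that rose and 3.68% that fell in NeuN-positive nuclei with EAE, and the 15.1% that rose and 12.6% that fell in NeuN-negative nuclei. Among other isoforms and accessory steps, 1 rose and 2 fell of 25 tested in NeuN-positive nuclei with EAE, where Ldhd, the D-lactate dehydrogenase, fell by 1.14 on the log2 scale (edgeR, adjusted p = 0.0466). In NeuN-negative nuclei 4 rose and 4 fell of 26 tested. Among genes that carry pyruvate into mitochondrial metabolism, 0 rose and 1 fell of 15 in NeuN-positive nuclei by edgeR, where 2 had an unadjusted p under 0.05. That gene was Mpc1, a subunit of the mitochondrial pyruvate carrier, which averaged 1.46 ± 0.502 CPM in EAE and 6.28 ± 6.40 CPM in healthy mice (SD, n = 5 each), at a log2 fold change of -2.01 ± 0.60 (edgeR, adjusted p = 0.0492). In NeuN-negative nuclei 1 rose and 2 fell, with Pcx, pyruvate carboxylase, at 47.8 CPM in EAE and 231 CPM in healthy mice on average, a log2 fold change of -2.05 ± 0.33 (edgeR, adjusted p = 0.000310). The EAE effect on Pcx differed between the sorts by 2.63 ± 0.40 (edgeR, adjusted p = 0.00399).

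Of 18 glycogen genes, 3 rose in NeuN-positive nuclei with EAE, and 1 rose and 6 fell in NeuN-negative nuclei. Pygl, the liver glycogen phosphorylase, rose in both, by a log2 fold change of 1.65 ± 0.34 and 2.50 ± 0.36 (edgeR, adjusted p = 0.00747 and 0.000134). Pygm, the muscle phosphorylase known in astrocytes, averaged 24.5 CPM in EAE and 90.8 CPM in healthy NeuN-negative nuclei, at -1.65 ± 0.29 (edgeR, adjusted p = 0.000790). Of the hypoxia response genes, 2 of 20 tested rose in NeuN-positive nuclei. They were Hif1an at 1.03 ± 0.28 and Vhl at 1.11 ± 0.30 on the log2 scale (edgeR, adjusted p = 0.0314 and 0.0324). In NeuN-negative nuclei 2 of 21 rose and 2 fell. There Car9, a carbonic anhydrase used as a marker of hypoxia, averaged 3.87 CPM in EAE and 0.346 CPM in healthy mice (3.73 ± 0.90, adjusted p = 0.00676), and Vegfa, the vascular growth factor, averaged 36.0 CPM in EAE and 170 CPM in healthy mice (-1.98 ± 0.37, adjusted p = 0.00124), both by edgeR.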

How the data were processed

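Raw read counts per Ensembl gene were deposited as 1 table of 20 libraries; per the labels' protocols, nuclei were sorted on NeuN, RNA was purified on columns and libraries were made from poly-A RNA. The submitters' processing notes name STAR 2.4, DESeq2, GRCm39 and mm10, with no role. Counting tool, annotation release and strand use are not given. Groups follow the labels. The 32 genes, the lists of other pathway genes and the marker lists were chosen with earlier results of these data known. Genes named are all 32 members and, from each other list, at most 2 genes a direction with the smallest p. A gene that this rule names is not reported here.

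Genes were filtered with filterByExpr and scaled by TMM, and each of 5 comparisons was fitted with edgeR 4.0.16 (robust quasi-likelihood test, R 4.3.3) on its own groups, the difference of EAE effects on all 20 libraries. P-values were adjusted by Benjamini-Hochberg over all genes. CPM use TMM over 20 libraries. Same-numbered libraries of the sorts deviated together, at r 0.166 to 0.504 in EAE and 0.467 to 0.816 in healthy mice. Between different numbers r was -0.273 to 0.098 in EAE and -0.671 to 0.524 in healthy mice, where the ranges overlap. The numbers were therefore taken to pair the sorts, which is an inference. Blocked values stand beside calls they change. Alternatives were DESeq2 1.42.0, limma voom 3.58.1, other filters and scaling, a fit on all libraries, a replicate block, leaving out each library and, chosen after seeing the data, the mitochondrial share as a covariate and leaving out EAE 2, EAE 4 and healthy 3, whose NeuN-positive libraries were above 2%. Total counts, from 3149209 to 37689267, limit what low genes such as Slc16a7 can show. Positions are from GENCODE M21 and promoters from RefSeq, both on GRCm38.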

Additional observations from a re-analysis of the deposited data

Results flagged for a closer look

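In 8 of the 128 sets of 5 libraries (32 genes in 4 groups), 1 library stood apart from the other 4 by more than 0.71 of the whole range; chance marks about 1 in 20 sets. Slc2a1 had 67.3 CPM in healthy NeuN-positive replicate 1, where the next highest library had 33.0. Pgam1 had 5.23 CPM in healthy NeuN-positive replicate 5, with the next at 2.57. In healthy NeuN-negative replicate 5, Ldha had 45.2 CPM (next 26.1), Tpi1 98.7 CPM (next 58.8) and Prps1 17.9 CPM (next 8.53); this library was the deepest of all. In EAE NeuN-negative replicate 2, the shallowest library, Slc16a7 had 12.9 CPM (next 4.36) and Rpe 25.9 CPM (next 7.79). H6pd had 37.6 CPM in EAE NeuN-positive replicate 2, with the next at 25.8.

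The EAE effect on H6pd differed between the sorts by -1.82 on the log2 scale, NeuN-positive minus NeuN-negative, by the interaction test of edgeR.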

How the results depend on the processing

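In both EAE comparisons Hk2, Ldha and Slc16a3 stayed higher and past the threshold under every alternative run, and so did H6pd in NeuN-negative nuclei. For EAE in NeuN-positive nuclei (3 higher, 1 lower), the count lower was 3 by the DESeq2 Wald test and 3 with no count filter. It was 2 with all 20 libraries fitted and 0 with the mitochondrial share as a covariate. Limma voom gave 7 higher and 7 lower. Of all genes, these settings called 17.9, 6.7, 9.17, 4.67 and 46.2% in either direction, in this order. Leaving out 1 library gave 3 higher and 0 to 4 lower, against 5.16 to 18.5% of all genes. For EAE in NeuN-negative nuclei (6 higher, 1 lower), limma voom gave 10 and 3, the fit on all 20 libraries 5 lower and the covariate 0 lower. Of all genes, these settings called 51.5, 34.4 and 12.8% in either direction, in this order. Leaving out 1 library gave 4 to 7 higher and 0 to 1 lower, against 17.5 to 34.9% of all genes. For the difference of EAE effects (0 higher, 1 lower), the count lower was 3 by the Wald test, 0 with no count filter and 2 with the covariate. It was 3 without EAE 2, EAE 4 and healthy 3, limma voom gave 7 and 6, and the replicate block 3 and 3. Of all genes, these settings called 7.39, 0.697, 3.73, 3.65, 24.1 and 12.2% in either direction, in this order. Leaving out 1 library gave 0 to 2 lower, against 0.428 to 4.82% of all genes. Leaving out 1 library gave 9 to 11 higher and 9 to 10 lower between the healthy sorts, and 5 to 6 and 5 to 6 between the EAE sorts. The shares of all genes were then 39.9 to 49.7% between the healthy sorts and 20.4 to 35.1% between the EAE sorts. Between the EAE sorts (6 higher, 6 lower) limma voom gave 7 and 9, no count filter 6 and 4, and leaving out EAE 2 and EAE 4 gave 6 and 9. Of all genes, these settings called 50.9, 18.6 and 41.7% in either direction, in this order. Between the healthy sorts (10 and 9) limma voom gave 15 and 12, against 71.3% of all genes. With 1 library left out, 2 to 4 isoform ratios passed for EAE in NeuN-positive and 4 to 5 in NeuN-negative nuclei. Between the sorts 5 to 7 passed in both states. EAE and healthy libraries of the same number are not paired (r -0.386 to 0.313 and -0.234 to 0.265). With that block the counts were 3 and 1, and 5 and 1, with Tpi1 at 0.89 (adjusted p = 0.0858 by edgeR). The block called 6.89% of all genes in NeuN-positive and 20.9% in NeuN-negative nuclei.

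Signs reversed in few of the genes that passed somewhere. G6pdx in NeuN-positive nuclei ran from -0.27 to 0.11 as single libraries were left out. With EAE in NeuN-negative nuclei Pgls stood at -0.014 with no count filter, and Taldo1 at 0.12 and Tkt at 0.049 with the covariate. Pgls between the healthy sorts stood at 0.052 with the covariate and ran from -0.65 to 0.068 as single libraries were left out. For genes that passed in no setting, 133 of 1491 values changed sign. The cause of these changes was not tested. Between the EAE sorts the all-gene median shifted by -0.102 with the size factors of DESeq2. Slc16a7 and Hk2 in NeuN-positive nuclei rest on few reads, which limits their precision.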
